A study of Homo sapiens with 19 samples.

Results

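The comparison described here is the knockdown of G3BP1 in SH-SY5Y cells, with 1 library from cells given an siRNA against G3BP1 (siG3BP1) and 1 from cells given a negative control siRNA (siCtrl). Its members were all rows of the protein-coding gene table with a value above 1 TPM (the level of a transcript, corrected for its length and scaled to the sum of each library) in at least 1 of the 2 libraries. This rule kept 12280 of 19942 rows. Just inside it lay ZNF880 at 1.00 TPM in siG3BP1 and just outside it GLYATL2 at 0.999 TPM in siCtrl.

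SH-SY5Y is an established human neuroblastoma line, largely of neuroblast type. Each siRNA was a single Silencer Select duplex delivered with a lipid reagent, so that an effect of knocking down G3BP1 and an effect of that one duplex cannot be told apart. The same table holds a library from cells given an siRNA against the paralog G3BP2 (siG3BP2), which shares siCtrl as its control. It also holds 2 libraries without siRNA from arsenite-treated cells, the lysate cleared by centrifugation (Total) and the stress granule cores purified from it (SG). The labels give sodium arsenite at 50 mM on all 5 of these samples, siCtrl and siG3BP1 included, whereas the study's methods for the knockdown cells mention no arsenite. Where cells were treated, those methods give a lower arsenite dose, in the micromolar range. These sources differ on whether the knockdown cells were stressed, and the levels of arsenite-responsive genes are given with the results. With 1 library a side no spread between replicates can be estimated, so every difference below is a difference between these 2 libraries, without a test. TPM keep no read depth, and the precision of a single value is unknown. Because RNA was taken from whole cultures, fewer cells of a type and less RNA per cell cannot be told apart.

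G3BP1 and G3BP2 are cytoplasmic RNA-binding proteins that scaffold stress granules, the condensates of untranslated mRNA and protein that form when translation initiation is blocked, for example by arsenite. They bind Caprin-1 and USP10 through a shared N-terminal domain and RNA through their C-terminal part. In unstressed cells both proteins are spread through the cytoplasm, and G3BP1 has also been tied to mRNA decay, to the control of mTORC1 at lysosomes and to antiviral signalling.

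G3BP1 itself (ENSG00000145907, chromosome 5, 151771045 to 151812911, plus strand, GRCh38) stood at 18.7 TPM in siCtrl and 6 TPM in siG3BP1, that is at 32% of the control. It was at 16.5 TPM in siG3BP2 and 12.8 TPM in Total, both above siG3BP1. Its paralog G3BP2 (chromosome 4, 75641849 to 75724589, minus strand) stood at 38.1 TPM in siCtrl and 39.4 TPM in siG3BP1, with a log2 fold of 0.05, and at 11.4 TPM in siG3BP2. The targeted mRNA was thus lower in the library that its label names, and the G3BP2 mRNA was about level between siG3BP1 and siCtrl. Folds are given on the log2 scale of TPM + 1, siG3BP1 over siCtrl, which understates the difference of genes at low levels, and TPM pairs in brackets run from siCtrl to siG3BP1.

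Over the 12280 members the median log2 fold was -0.08, with quartiles at -0.25 and 0.09. Past 2-fold of TPM + 1, 138 members were higher in siG3BP1 (1.12% of all members) and 243 were lower (1.98%). Past 1.5-fold, 455 were higher (3.71%) and 765 were lower (6.23%). When siG3BP1 was rescaled so that the median ratio of genes above 10 TPM in both libraries was 1, 166 were higher and 217 lower past 2-fold, and 559 higher and 610 lower past 1.5-fold. The share of higher genes among the 1.5-fold calls moved from 37.3% to 47.8% with that rescaling. Such a rescaling centres the folds and so moves these counts towards balance by construction. The protein-coding TPM summed to 646450 in siCtrl and 628101 in siG3BP1. Scaled to the same sum, 145 were higher and 232 lower past 2-fold, and 41.7% of the 1.5-fold calls were higher. How large the excess of lower genes was thus depended on the scaling chosen.

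**Figure D1:**
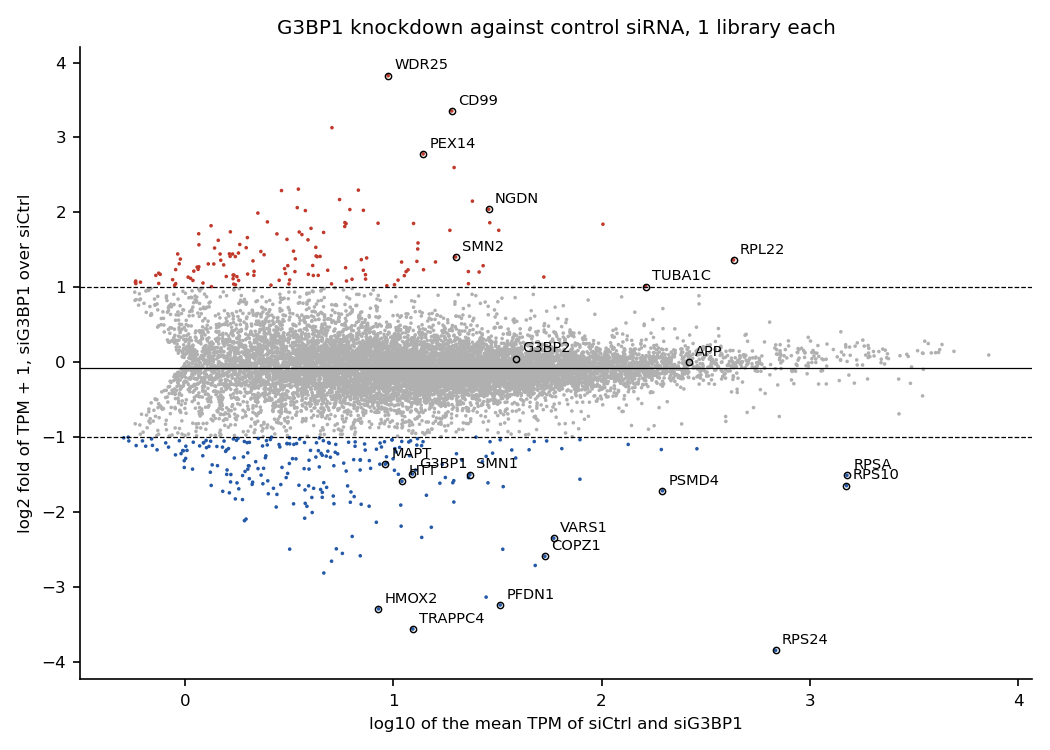
Each point is 1 of the 12280 members, plotted by the log10 of its mean TPM in the 2 libraries and its log2 fold of TPM + 1 (siG3BP1 over siCtrl), with members past 2-fold in red (higher) and blue (lower), dashed lines at 2-fold, a solid line at the median of -0.08 and circles on genes named in the text. The cloud narrows towards high levels, and RPS24, RPS10 and RPSA lie far below it at the right edge.

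How far a single gene strayed depended on its level. In the 1248 members with a mean below 2 TPM, the 5th and 95th percentiles of the log2 fold were -0.99 and 0.95, and 52 were higher and 62 lower past 2-fold. In the 3628 members between 20 and 100 TPM these percentiles were -0.48 and 0.27, with 9 genes higher and 26 lower past 2-fold, and in the 968 members between 100 and 500 TPM they were -0.34 and 0.22, with 3 higher and 4 lower. The higher genes of that band included the ribosomal protein gene RPL22 and the tubulin gene TUBA1C, and its 4 lower genes were the proteasome subunit gene PSMD4, CCDC124, PTOV1 and the unnamed gene ENSG00000288608. The last is annotated at only 51 bases, shorter than a read, and overlaps another row, so its value is uncertain. Of the 172 members above 500 TPM none was higher past 2-fold, and 3, all ribosomal protein genes, were lower. Band medians ran from -0.11 (20 to 100 TPM) to 0.05 (above 500 TPM). Most genes past 2-fold were thus of low abundance, and the named genes below are weighted towards the abundant ones. Counts past 1.5-fold in each gene list below stand beside 3.71% higher and 6.23% lower over all members. Among members with a mean below 2 TPM these shares were 12.9% and 14.4%. Many genes below are given in siCtrl and siG3BP1 only. Such a pair does not show which of the 2 stood apart from siG3BP2 and Total.

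**Figure D2:**
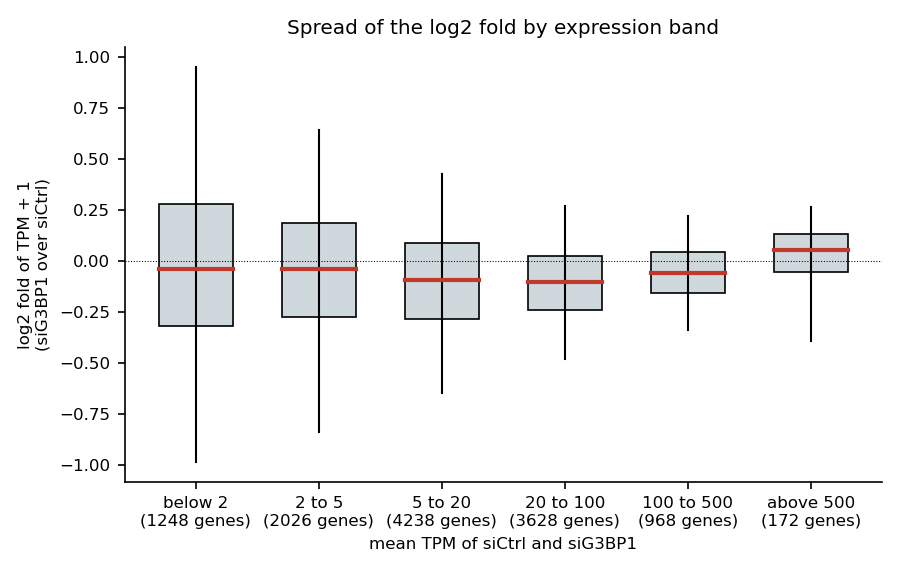
Log2 fold of TPM + 1 (siG3BP1 over siCtrl) in 6 bands of the mean TPM, with the median (red line), quartiles (box) and 5th and 95th percentiles (whiskers) over genes. The span between the whiskers falls from -0.99 to 0.95 below 2 TPM to -0.34 to 0.22 between 100 and 500 TPM.

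Of the 7229 members above 10 TPM in at least 1 of the 2 libraries, the lowest log2 fold was that of RPS24, a protein of the small ribosomal subunit, which stood at 1283 TPM in siCtrl, 88 TPM in siG3BP1, 1495 TPM in siG3BP2 and 183 TPM in Total. It was low in siG3BP1 and, less so, in Total, and high in both other siRNA libraries. TRAPPC4, a subunit of the TRAPP vesicle-tethering complexes, followed with 23.7 TPM in siCtrl, 1.09 TPM in siG3BP1, 20.7 TPM in siG3BP2 and 14.4 TPM in Total, where siG3BP1 alone was low. PFDN1, a subunit of the prefoldin chaperone that hands actin and tubulin to the folding machinery, stood at 59.8 TPM in siCtrl, 5.42 TPM in siG3BP1, 62.4 TPM in siG3BP2 and 64.6 TPM in Total. In this gene the 3 libraries other than siG3BP1 lay close together. The same held for COPZ1, a subunit of the COPI coat of Golgi vesicles (92.4 TPM in siCtrl, 14.5 TPM in siG3BP1, 92.8 TPM in siG3BP2 and 92.8 TPM in Total), and for ATP5IF1, the inhibitor protein of the mitochondrial ATP synthase (57.7 TPM in siCtrl, 9.38 TPM in siG3BP1, 66.5 TPM in siG3BP2 and 65 TPM in Total). The SNARE protein gene SNAP47 (50.9 TPM in siCtrl, 4.9 TPM in siG3BP1, 38.7 TPM in siG3BP2 and 40.8 TPM in Total) and the deacetylase gene SIRT2 (18.5 TPM in siCtrl, 3.28 TPM in siG3BP1, 15.1 TPM in siG3BP2 and 11.9 TPM in Total) were likewise lowest in siG3BP1, with the other 3 libraries above it.

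Others among the 15 lowest were high in siCtrl and low in siG3BP1, siG3BP2 and Total alike. HMOX2, the constitutive heme oxygenase, stood at 16.2 TPM in siCtrl, 0.754 TPM in siG3BP1, 0.844 TPM in siG3BP2 and 0.613 TPM in Total. ACACA, which makes malonyl-CoA for fatty acid synthesis, stood at 12.6 TPM in siCtrl, 1.27 TPM in siG3BP1, 0.952 TPM in siG3BP2 and 0.814 TPM in Total, and the valyl-tRNA synthetase gene VARS1 at 99.3 TPM in siCtrl, 18.6 TPM in siG3BP1, 18.1 TPM in siG3BP2 and 16.1 TPM in Total. ACTN4, an actin cross-linker, stood at 23.6 TPM in siCtrl, 3.84 TPM in siG3BP1, 3.66 TPM in siG3BP2 and 6.41 TPM in Total. In these 4 genes siG3BP1 did not stand apart from siG3BP2 or from Total, and siCtrl did. By RT-qPCR in separate experiments, the study reported lower HMOX2 RNA in G3BP-depleted neuroblastoma cells. The siG3BP2 values share siCtrl as their control and are given side by side only. MLLT10 and the RNA-binding protein gene CELF1 lay lowest in siG3BP1 with siG3BP2 and Total between it and siCtrl. POR, the electron donor of microsomal cytochromes P450, was low in siG3BP1 and Total and high in siCtrl and siG3BP2 (84.1 TPM in siCtrl, 12 TPM in siG3BP1, 69 TPM in siG3BP2 and 16.3 TPM in Total).

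PPP2R3B, a regulatory subunit of the phosphatase PP2A, completed the 15 lowest with 10.4 TPM in siCtrl and 0.948 TPM in siG3BP1, but its identifier is listed on 2 rows. It lies in the pseudoautosomal region that the X and Y chromosomes share, and the second row stood at 14.7 and 17.8 TPM. Summed over both rows its log2 fold was -0.41.

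At the other end, the highest log2 fold among members above 10 TPM was that of WDR25, a WD-repeat gene, which stood at 0.379 TPM in siCtrl, 18.5 TPM in siG3BP1, 0.96 TPM in siG3BP2 and 8.98 TPM in Total. CD99, a membrane glycoprotein, stood at 2.58 TPM in siCtrl, 35.6 TPM in siG3BP1, 2.49 TPM in siG3BP2 and 5.81 TPM in Total on the first of its 2 rows. It too is pseudoautosomal, its second row stood at 82.1 TPM in siCtrl and 65.3 TPM in siG3BP1, and the sum over both rows had a log2 fold of 0.25. MRPL22, a protein of the mitochondrial ribosome, stood at 7.99 TPM in siCtrl, 29.4 TPM in siG3BP1, 7.52 TPM in siG3BP2 and 8.92 TPM in Total, and in this gene siG3BP1 alone was high. ALKBH6 was highest in siG3BP1 as well (12 TPM in siCtrl, 46.2 TPM in siG3BP1, 13.6 TPM in siG3BP2 and 23.2 TPM in Total).

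In others of the 15 highest, siCtrl was the low library, and siG3BP1, siG3BP2 and Total lay together. PEX14, a docking factor for peroxisomal protein import, stood at 2.79 TPM in siCtrl, 25 TPM in siG3BP1, 23.8 TPM in siG3BP2 and 29.7 TPM in Total. NGDN (neuroguidin), an EIF4E-binding protein that also serves ribosome assembly, stood at 10.6 TPM in siCtrl, 46.8 TPM in siG3BP1, 46.7 TPM in siG3BP2 and 44.1 TPM in Total. The study also reported higher NGDN RNA in G3BP-depleted neuroblastoma cells by RT-qPCR. TMEM256 (4.84 TPM in siCtrl, 34.3 TPM in siG3BP1, 35.7 TPM in siG3BP2 and 34.8 TPM in Total) and PFDN6, a second prefoldin subunit (1.82 TPM in siCtrl, 10.6 TPM in siG3BP1, 14.3 TPM in siG3BP2 and 12.1 TPM in Total), had the same pattern across these libraries. With the read-through row TMEM256-PLSCR3 added, the log2 fold of TMEM256 was 1.39 in place of 2.60. Others among the 15 were PPFIBP2, SLC39A4, a zinc importer, VPS41 of the HOPS complex, VPS35L of the retriever complex, BBS4 of the BBSome and POLR2J3, a copy of an RNA polymerase II subunit gene that shares 78.7% of its windows with another gene. SLC39A4 stood at 8.19 TPM in siCtrl, 39.8 TPM in siG3BP1, 28.5 TPM in siG3BP2 and 16.9 TPM in Total, and VPS35L at 4.87 TPM in siCtrl, 20.2 TPM in siG3BP1, 18.3 TPM in siG3BP2 and 3.5 TPM in Total, with Total near siCtrl. BBS4 stood at 2.23 TPM in siCtrl, 12.1 TPM in siG3BP1, 1.68 TPM in siG3BP2 and 14.6 TPM in Total, with siG3BP2 near siCtrl.

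**Figure D3:**
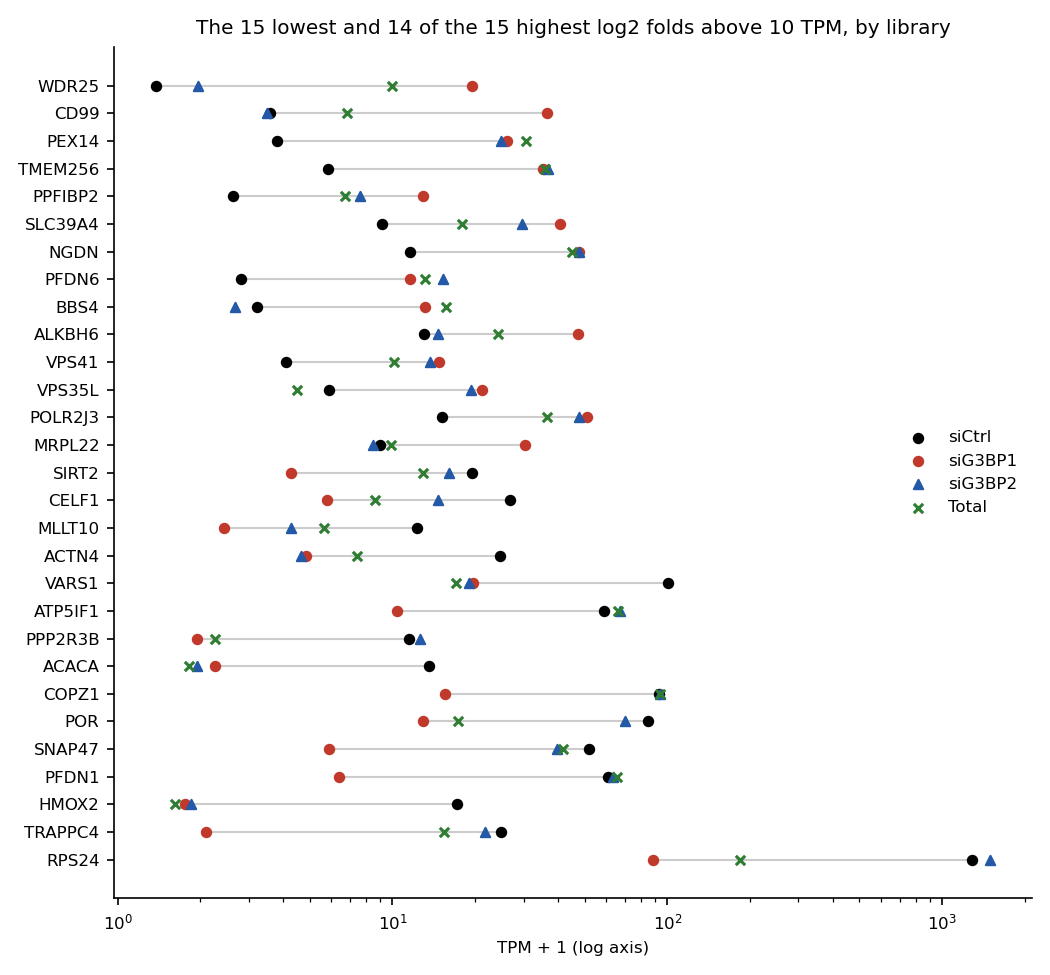
TPM + 1 on a log axis in siCtrl (black), siG3BP1 (red), siG3BP2 (blue triangles) and Total (green crosses) for the 15 lowest and 14 of the 15 highest log2 folds among the 7229 members above 10 TPM, 1 library each, with a grey line from siCtrl to siG3BP1. In PFDN1, COPZ1 and ATP5IF1 the red point stands alone, and in HMOX2, VARS1, NGDN and PEX14 the black point does.

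The position of the Total library, which shares no control with the knockdown, was counted over all calls. Among the 243 members lower past 2-fold, Total lay within 1.5-fold of siG3BP1 and not of siCtrl in 117 and within 1.5-fold of siCtrl and not of siG3BP1 in 53. Among the 138 higher members these counts were 42 and 62. Among calls above 10 TPM they were 27 and 24 of 89 lower members, and 17 and 9 of 40 higher members, where the order was reversed. Over all 12280 members they were 1540 and 801, so that Total lay within that range of siG3BP1 alone in more genes than of siCtrl alone over the whole set too. Total comes from the cleared lysate of arsenite-treated cells without siRNA and is not a replicate of either library.

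Some of these genes share sequence with other genes, and whether this affected their values was not tested. Of 75-base windows of the annotated transcripts, over 10% also occurred in another gene for 1732 of the members (14.1%). This held for 22 of the 138 higher (15.9%) and for 28 of the 243 lower genes past 2-fold (11.5%), near the share of all members. Among calls above 10 TPM it held for 10 of 40 higher genes (25%), above that share, and for 14 of 89 lower genes (15.7%). The survival motor neuron genes SMN1 and SMN2, which were picked out after their values were seen, share 81.1% of the SMN1 windows. SMN1 stood at 35.0 TPM in siCtrl and 11.7 TPM in siG3BP1 and SMN2 at 10.5 and 29.3 TPM, while their sum stood at 45.4 and 41 TPM. The 2 genes differed in opposite directions, and their sum had a log2 fold of -0.14. RPS10 shares 26.2% of its windows, most of all with the read-through gene RPS10-NUDT3, and with that row added its log2 fold was -1.31 in place of -1.65.

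Cytosolic ribosomal protein genes encode some of the most abundant mRNAs of these cells, and 79 of 81 listed were members. Their median log2 fold was 0.12, with quartiles at 0.00 and 0.19, against -0.08 over all members. Past 1.5-fold, 1 was higher and 5 were lower (3.71% and 6.23% of all members). The one higher gene was RPL22 (240.4 TPM in siCtrl and 620.3 TPM in siG3BP1), and Total stood at 596 TPM. The 5 lower ones were RPS24, RPS10 (2276 TPM in siCtrl and 724 TPM in siG3BP1), RPSA, the laminin receptor precursor (2233 TPM in siCtrl and 782 TPM in siG3BP1), RPL19 (3311 TPM in siCtrl and 2049 TPM in siG3BP1) and RPS3, at 648 TPM in siCtrl and 425 TPM in siG3BP1. RPS10 was at 2278 TPM in siG3BP2 and 2717 TPM in Total, and RPSA at 1983 and 2663 TPM, so that siG3BP1 was the low library in both. The family thus held a small upward offset shared by most of its members beside a few that were far lower. Above 500 TPM, its 68 members had a median of 0.11 and the 104 other genes one of 0.02. RPS29 (524 TPM in siCtrl and 759 TPM in siG3BP1), RPL32 (1213 TPM in siCtrl and 1606 TPM in siG3BP1) and RPS19 (322 TPM in siCtrl and 409.8 TPM in siG3BP1) were the next highest after RPL22.

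Translation factors showed both directions around a median of -0.01 (64 of 66 members, 1 higher and 2 lower past 1.5-fold). EIF4E, the cap-binding protein, stood at 16.4 TPM in siCtrl and 7.31 TPM in siG3BP1, and its partners in the EIF4F complex also had values below 0, with a log2 fold of -0.73 for EIF4A1, the RNA helicase, and of -0.49, short of 1.5-fold, for EIF4G1, the scaffold. EIF4A1 overlaps another row and shares over 10% of its windows with other genes. EIF4G3, a second scaffold of that complex, stood higher at 5.64 TPM in siCtrl and 11.3 TPM in siG3BP1. EIF4E was at 4.19 TPM in siG3BP2. Of 20 cytosolic aminoacyl-tRNA synthetase genes, 1, VARS1, was lower and 0 were higher past 1.5-fold, with a median of -0.03. Signal recognition and translocon genes (34 members, median 0.01) held 0 genes past 1.5-fold in either direction, and SEC62, a translocon partner, stood farthest out (6.05 to 8.97 TPM, log2 fold 0.50).

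Stress granule proteins are the partners and fellow residents of G3BP1. The list held 49 members of 52, without G3BP1 itself, with a median of -0.11, 0 higher and 3 lower past 1.5-fold. TAF15, an RNA-binding protein of the FET family, stood at 6.68 TPM in siCtrl and 1.02 TPM in siG3BP1. CAPRIN1, which binds G3BP1 directly, was at 108 TPM in siCtrl and 95.2 TPM in siG3BP1, and USP10, the other direct partner, at 46.0 and 47.6 TPM. TIA1 (19.3 to 23.6 TPM, log2 fold 0.28) and FXR1 (16 to 22.3 TPM, log2 fold 0.46), RNA-binding proteins of the granule, were the highest of the list. With 1 targeted scaffold at 32% of its control, the mRNAs of its direct partners differed by less than 1.5-fold.

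Processing bodies and cytoplasmic decay factors (48 members, median 0.00) had 1 gene higher and 5 lower past 1.5-fold (3.71% and 6.23% of all members). CNOT2, a subunit of the CCR4-NOT deadenylase, stood at 22.9 TPM in siCtrl and 5.96 TPM in siG3BP1, the nonsense-mediated decay endonuclease gene SMG6 at 14.6 TPM in siCtrl and 5.37 TPM in siG3BP1, and EDC3, an enhancer of decapping, at 39.8 TPM in siCtrl and 18.5 TPM in siG3BP1. PARN, a poly(A) ribonuclease, was the higher one at 0.326 TPM in siCtrl and 5.49 TPM in siG3BP1. Among 13 microRNA machinery genes (median -0.03), the processing enzymes DICER1 (2.75 to 6.24 TPM, log2 fold 0.95) and DROSHA (15.6 to 24.5 TPM, log2 fold 0.62) were higher past 1.5-fold. The SR proteins and hnRNPs (33 members, median -0.07) held 0 genes past 1.5-fold, with HNRNPM (132 to 188 TPM, log2 fold 0.51) and HNRNPA1 (479 to 363 TPM, log2 fold -0.40) farthest from 0.

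Respiratory chain and mitochondrial genes lay near the overall median as groups. Nuclear-encoded oxidative phosphorylation subunits (79 members) had a median of -0.01, with 3 higher and 2 lower past 1.5-fold. The higher ones included ATP5MC2, a c-ring subunit gene of the ATP synthase (206 TPM in siCtrl, 381 TPM in siG3BP1, 591 TPM in siG3BP2 and 728 TPM in Total), and ATP5MK (88 TPM in siCtrl, 162 TPM in siG3BP1, 187 TPM in siG3BP2 and 196 TPM in Total), in both of which siCtrl was the lowest of these 4 libraries. The lower ones were ATP5IF1 and NDUFA5, a complex I subunit (27.2 TPM in siCtrl and 14.1 TPM in siG3BP1). Mitochondrial ribosomal proteins (77 members, median -0.06) had 1 higher gene, MRPL22, and 1 lower gene, MRPL23 (42.4 TPM in siCtrl and 26.5 TPM in siG3BP1), past 1.5-fold. The mRNAs of mitochondrial DNA were not analysed here.

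Chaperone and degradation genes were close to level as groups. Proteasome subunits (44 members, median -0.07) were tightly grouped with quartiles at -0.13 and -0.01, except PSMD4, a ubiquitin receptor of the regulatory particle (301 TPM in siCtrl, 90.8 TPM in siG3BP1, 297 TPM in siG3BP2 and 304 TPM in Total), and PSME1, an activator subunit (70.4 to 44.4 TPM, log2 fold -0.65). In PSMD4 siG3BP1 alone was low. Heat shock chaperones had a median of -0.05 (36 members, 2 higher and 0 lower past 1.5-fold), with HSP90AA1 (209.6 to 235 TPM, log2 fold 0.16), HSPA1A, the inducible HSP70 (15 to 12.3 TPM, log2 fold -0.27), and DNAJB1 (78.5 to 65.9 TPM, log2 fold -0.25) all short of 1.5-fold. HSPA1A shares 71.6% of its windows with HSPA1B. Targets of the integrated stress response (32 members) had a median of -0.15, and their 2 genes lower past 1.5-fold included MTHFD2, a mitochondrial folate enzyme (38.3 to 23.6 TPM, log2 fold -0.67), while PPP1R15A, the stress-induced phosphatase subunit, was at 22.4 TPM in siCtrl and 23.7 TPM in siG3BP1. Targets of the ER unfolded protein response had a median of -0.07 (25 members, 1 lower past 1.5-fold). Autophagy and lysosome genes had one of -0.14 (52 members), with ATG4B, a protease of the autophagy pathway (63.8 to 33.7 TPM, log2 fold -0.90), the lower and OPTN, an autophagy receptor (2.35 to 5.34 TPM, log2 fold 0.92), among the 2 higher genes.

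Growth signalling was examined because G3BP1 has been placed on lysosomes with the TSC complex. TSC and mTORC1 genes (32 members) had a median of -0.04. The kinase gene MTOR itself stood at 20.5 TPM in siCtrl and 11.8 TPM in siG3BP1 and DEPDC5, a subunit of the GATOR1 inhibitor, at 7.1 TPM in siCtrl and 3.29 TPM in siG3BP1, both lower past 1.5-fold. DEPDC5 overlaps another row. TBC1D7, the third subunit of the TSC complex, stood at 6.63 TPM in siCtrl and 16 TPM in siG3BP1, higher past 2-fold. Ras and MAPK genes, among them Ras GTPase-activating proteins, after which G3BP1 was named, had a median of -0.07 (42 members), with RASA4 (51.6 to 29.5 TPM, log2 fold -0.78) lower and RASA1, the GAP that G3BP1 was first found with, at 6.51 TPM in siCtrl and 7.72 TPM in siG3BP1. The list of ALK, RET, neurotrophin and related receptors (17 members) had a lower median, -0.26, with 0 higher and 5 lower past 1.5-fold (3.71% and 6.23% of all members). RET, the receptor of GDNF-family ligands, stood at 88.3 TPM in siCtrl and 55.7 TPM in siG3BP1 and ALK at 13.6 TPM in siCtrl and 11.1 TPM in siG3BP1. FGFR1 (23.8 to 26.1 TPM, log2 fold 0.13) and GFRA2 (16.9 to 19.2 TPM, log2 fold 0.18) stood on the other side of 0. Protein kinase C genes had a median of -0.05 (12 members), and PRKCA stood at 54.2 TPM in siCtrl and 44.2 TPM in siG3BP1.

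In developmental signalling the medians were -0.06 for Wnt (28 members), 0.00 for TGF-beta and BMP (31 members) and -0.10 for Notch genes (19 members). The Notch receptor gene NOTCH2 stood at 11.6 TPM in siCtrl and 2.39 TPM in siG3BP1, the only gene of these 3 lists lower past 1.5-fold, and TCF7L1, a transcription factor of the Wnt pathway (5.12 to 10.9 TPM, log2 fold 0.96), was the only higher one. NOTCH2 was at 1.87 TPM in siG3BP2 and 1.13 TPM in Total, with siCtrl the highest. Targets of Wnt and BMP such as DKK1 (44.2 to 53.4 TPM, log2 fold 0.27) and ID2 (319 to 386 TPM, log2 fold 0.28) stood somewhat higher, short of 1.5-fold.

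The response genes of arsenite were of interest because of the label on these samples. NRF2 targets (28 members) had a median of -0.08, with 1 higher and 2 lower past 1.5-fold. HMOX1, the inducible heme oxygenase and a classical arsenite-responsive gene, was at 4.83 TPM in siCtrl, 5.29 TPM in siG3BP1, 3.07 TPM in siG3BP2 and 5.87 TPM in Total. The knockdown and its control differed by less than 1.5-fold in it. Some other stress-response genes were higher in Total than in the siRNA libraries, and some were not. EGR1, an immediate-early transcription factor gene, stood at 8.08 TPM in siCtrl, 5.35 TPM in siG3BP1, 6.16 TPM in siG3BP2 and 269 TPM in Total, and ATF3, a stress-induced one, at 5.77 TPM in siCtrl, 4.59 TPM in siG3BP1, 5.46 TPM in siG3BP2 and 28.9 TPM in Total. The metallothionein gene MT2A stood at 98.3 TPM in siCtrl, 112 TPM in siG3BP1, 112 TPM in siG3BP2 and 615 TPM in Total. HSPA1A, the inducible HSP70, stood at 15 TPM in siCtrl, 12.3 TPM in siG3BP1, 14.5 TPM in siG3BP2 and 79.3 TPM in Total, and DNAJB1, a co-chaperone gene, at 78.5 TPM in siCtrl, 65.9 TPM in siG3BP1, 71.9 TPM in siG3BP2 and 256.45 TPM in Total. In these 5 genes siCtrl, siG3BP1 and siG3BP2 lay together and below Total, which comes from a separate preparation without siRNA. NR4A1 (7.1 TPM in siCtrl and 5.54 TPM in Total), BTG2 (15.2 and 12.4 TPM) and GDF15 (54.8 and 25.8 TPM) went the other way. Summed over members, immediate-early genes were at 593 TPM in siCtrl and 1368 TPM in Total, and NRF2 targets at 5476 and 5338 TPM. Whether the knockdown cells were stressed was not tested. NQO1, a quinone reductase, stood at 24.1 TPM in siCtrl and 14 TPM in siG3BP1, and PGD, of the pentose phosphate pathway, at 179 TPM in siCtrl and 99.3 TPM in siG3BP1, both lower. NFE2L2, which encodes NRF2, stood at 16.3 TPM in siCtrl and 22.1 TPM in siG3BP1. Antioxidant enzymes had a median of 0.01 (30 members), and TXNRD2, the mitochondrial thioredoxin reductase, stood at 6.05 TPM in siCtrl and 20.2 TPM in siG3BP1. Metallothionein and metal transport genes had a median of 0.00 (27 members), with MT1F at 6.85 TPM in siCtrl and 12.7 TPM in siG3BP1. Heme metabolism (19 members, median -0.13) held 1 gene past 1.5-fold, HMOX2. Immediate-early genes (25 members, median -0.11) included log2 folds of -0.52 for EGR1 and -0.28 for ATF3, and 1 gene of the list was higher and 0 lower past 1.5-fold.

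Interferon-stimulated and NF-kB genes were at low levels, with median TPM in siCtrl of 3.79 and 6.46 against 13.4 over all members, and genes of nucleic acid sensing were not, at 17.0. Interferon-stimulated genes had 25 members of 54 listed, with a median of -0.02, 3 higher and 2 lower past 1.5-fold. IFITM3, an antiviral membrane protein, stood at 3.67 TPM in siCtrl and 6.94 TPM in siG3BP1, and OAS1, a sensor of double-stranded RNA, at 7.01 TPM in siCtrl and 8.68 TPM in siG3BP1. Genes of cytosolic nucleic acid sensing, in which G3BP1 takes part with cGAS and RIG-I, had 13 members and a median of -0.22. TRIM25, a ubiquitin ligase that acts with RIG-I (17 to 11.9 TPM, log2 fold -0.48), MAVS, the mitochondrial adaptor (11.6 to 8.98 TPM, log2 fold -0.34), and ADAR, the RNA-editing enzyme (71.7 to 57.7 TPM, log2 fold -0.31), were lower and none passed 1.5-fold. NF-kB genes (14 members) had a median of -0.03, with the inhibitor gene NFKBIB (11.2 to 21.6 TPM, log2 fold 0.89) and the kinase subunit gene IKBKG (6.97 to 13.6 TPM, log2 fold 0.87) higher and the kinase gene IKBKB (7.69 to 4.37 TPM, log2 fold -0.69) lower.

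Cell cycle genes separated by phase only slightly. Genes of the G1/S transition and DNA replication (64 members) had a median of -0.15, with 0 higher and 3 lower past 1.5-fold. POLA1, the catalytic subunit of DNA polymerase alpha, stood at 7.14 TPM in siCtrl and 1.02 TPM in siG3BP1, and LIG1, the replicative ligase, at 62.8 TPM in siCtrl and 36.2 TPM in siG3BP1. In siG3BP2 and Total, POLA1 was at 1.85 and 0.721 TPM and LIG1 at 51.6 and 38.8 TPM. Genes of G2/M and mitosis (65 members) had a median of 0.00, with 2 higher and 2 lower. CENPF (13.6 to 8.21 TPM, log2 fold -0.67) and INCENP (47.8 to 30.0 TPM, log2 fold -0.66), of the kinetochore and the chromosomal passenger complex, were the lower ones. Targets of p53 and apoptosis genes (44 members) had a median of 0.06, with 2 higher and 0 lower past 1.5-fold. XIAP, an inhibitor of caspases, stood at 3.48 TPM in siCtrl and 10.6 TPM in siG3BP1. CDKN1A, the p53-induced cell cycle inhibitor, at 115 and 139 TPM, and MDM2, at 5.04 and 6.20 TPM, were both short of 1.5-fold.

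The lists of replication-dependent histones and of chromatin enzymes had medians below that of all members. Replication-dependent histone genes (28 of 67 listed) had a median of -0.25, with 2 higher and 8 lower past 1.5-fold (3.71% and 6.23% of all members). Their mRNAs normally end without a poly(A) tail and the libraries were made from poly(A) RNA, so that only a small part of these transcripts is seen, and 12 of the 28 share over 10% of their windows with another gene. H4C14 stood at 13.5 TPM in siCtrl and 5.04 TPM in siG3BP1 and H4C15 at 6.32 TPM in siCtrl and 2.91 TPM in siG3BP1, a pair that shares 96.2% of the H4C14 windows and whose sum had a log2 fold of -1.22. Chromatin-modifying enzymes (114 members, median -0.13) had 2 higher and 14 lower genes past 1.5-fold, where all members had 3.71% and 6.23%. EHMT1, a histone H3 lysine methyltransferase, stood at 17.7 TPM in siCtrl and 3.99 TPM in siG3BP1, the remodeller gene CHD6 at 8.75 TPM in siCtrl and 1.63 TPM in siG3BP1 and SMARCB1, a core subunit of SWI/SNF complexes, at 27 TPM in siCtrl and 8.61 TPM in siG3BP1. In siG3BP2 and Total, EHMT1 was at 18.7 and 10.7 TPM and SMARCB1 at 25.8 and 17.9 TPM, with siG3BP1 the lowest. CHD6 was at 1.39 and 0.566 TPM there, with siCtrl the highest. SUV39H2, another H3 methyltransferase, was higher at 5.63 TPM in siCtrl and 9.91 TPM in siG3BP1. Histone variants with polyadenylated mRNAs (11 members) had a median of -0.07 and none passed 1.5-fold.

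Numbered zinc finger genes, many of them KRAB repressors, formed the largest list with 423 members, a median of -0.02, and 43 higher and 31 lower genes past 1.5-fold (3.71% and 6.23% of all members). Their median level was 3.78 TPM in siCtrl, and all members between 2 and 5 TPM had 6.47% higher and 9.72% lower past 1.5-fold. ZNF143, an activator bound at many promoters, stood at 1.61 TPM in siCtrl and 7.65 TPM in siG3BP1, ZNF227 at 3.9 TPM in siCtrl and 10.5 TPM in siG3BP1 and ZNF384 at 85.8 TPM in siCtrl and 48.1 TPM in siG3BP1. The HOX list had 8 members and a median of -0.09, and HOXC4 stood at 31.3 TPM in siCtrl and 63.6 TPM in siG3BP1.

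In metabolism, genes of cholesterol synthesis and uptake were lower as a group by a small amount. The 28 members had a median of -0.22, 14.3% of them were above 0 against 36.8% of all members, and 0 passed 1.5-fold. FDFT1, squalene synthase, stood at 38.4 TPM in siCtrl and 27.7 TPM in siG3BP1 and SREBF1, which encodes a master regulator of lipid genes, at 16.5 TPM in siCtrl and 12.1 TPM in siG3BP1. Fatty acid and lipid synthesis (35 members, median -0.11) held 3 genes lower past 1.5-fold, ACACA, LPIN1, a phosphatidate phosphatase (10.3 to 4.28 TPM, log2 fold -1.09), and CHPT1 (8.95 to 4.1 TPM, log2 fold -0.97). Glycolysis and hypoxia genes had a median of -0.06 (36 members), with PFKM (59.5 to 35.4 TPM, log2 fold -0.73) and HK2 (18.3 to 11.5 TPM, log2 fold -0.63) lower and ANKRD37 (8.6 to 15.9 TPM, log2 fold 0.82) higher past 1.5-fold. The tricarboxylic acid cycle list (20 members, median -0.10) had 1 such gene, PC, pyruvate carboxylase (19 to 9.26 TPM, log2 fold -0.96), and nucleotide synthesis (25 members, median -0.12) had IMPDH2 (111 to 177 TPM, log2 fold 0.67).

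The identity genes of the line were present in both libraries. Neuroblast markers (13 of 14) had a median of -0.10, 9 of them were below 0, and none passed 1.5-fold. The noradrenergic transcription factor gene PHOX2A stood at 719 TPM in siCtrl and 807 TPM in siG3BP1 and ISL1 at 105 TPM in siCtrl and 115 TPM in siG3BP1. On the other side of 0 were the neurofilament genes NEFM (99.99 to 79.1 TPM, log2 fold -0.33) and NEFL (98.1 to 79.5 TPM, log2 fold -0.30), the granule protein gene CHGA (365 to 309 TPM, log2 fold -0.24) and DCX, a microtubule-binding protein of young neurons (16.6 to 14.9 TPM, log2 fold -0.15). Core neuroblastoma transcription factors had a median of 0.00 (25 members) and none passed 1.5-fold, with GATA2 (653 to 505 TPM, log2 fold -0.37) among the farthest out. Substrate-adherent, mesenchymal markers (16 of 18) had a median of 0.13, with SNAI2 (14.7 to 18.5 TPM, log2 fold 0.31) and SOX9 (4.67 to 6.23 TPM, log2 fold 0.35) on the higher side and NOTCH2 far lower. The share of mesenchymal-like cells in each culture was not measured. Of 8 Schwann and glial markers, 2 were members.

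Catecholamine genes, which make and store noradrenaline, had 13 members and a median of -0.30. CYB561, the cytochrome that supplies reducing power to the vesicle, stood at 219 TPM in siCtrl, 117 TPM in siG3BP1, 126 TPM in siG3BP2 and 68 TPM in Total, the only one past 1.5-fold, and siCtrl was the highest of these 4 libraries. DDC, the decarboxylase of the pathway, was at 102 TPM in siCtrl and 79.0 TPM in siG3BP1, SLC6A2, the noradrenaline transporter, at 85.7 TPM in siCtrl and 64.6 TPM in siG3BP1, and SLC18A1, a vesicular monoamine transporter, at 20.8 TPM in siCtrl and 13.9 TPM in siG3BP1. DBH, which makes noradrenaline, was level at 872 TPM in siCtrl and 905 TPM in siG3BP1. Secretory granule and neuropeptide genes had a median of -0.11 (16 members), with SCG5 (1.26 to 6.79 TPM, log2 fold 1.79) and VIP (3.76 to 6.32 TPM, log2 fold 0.62) higher and the neuropeptide precursor gene VGF at 699 TPM in siCtrl and 522 TPM in siG3BP1.

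Neuronal function lists spread more widely than they shifted. Synaptic vesicle and release genes (35 members, median -0.11) had 2 higher and 5 lower genes past 1.5-fold (3.71% and 6.23% of all members). Among them were the active-zone genes BSN (7.45 to 4.36 TPM, log2 fold -0.66) and UNC13A (14.5 to 9.15 TPM, log2 fold -0.61) and, on the higher side, the dynamin gene DNM1 (35 to 56.9 TPM, log2 fold 0.69). Adhesion and guidance genes (40 members, median -0.15) had 3 higher and 4 lower past 1.5-fold (3.71% and 6.23% of all members). TENM4, a teneurin, stood at 10.3 TPM in siCtrl and 2.1 TPM in siG3BP1, PLXNA1, a semaphorin receptor, at 39.8 TPM in siCtrl and 16 TPM in siG3BP1, and SEMA6A at 6.45 TPM in siCtrl and 2.28 TPM in siG3BP1. In siG3BP2 and Total, TENM4 was at 1.55 and 1.28 TPM, PLXNA1 at 23.9 and 9.68 TPM and SEMA6A at 2.09 and 0.838 TPM. Clustered protocadherins (46 members, median 0.00) overlap one another and share exons, and none passed 1.5-fold. Voltage-gated and potassium channel genes (46 members, median -0.07) had 3 higher and 5 lower past 1.5-fold (3.71% and 6.23% of all members). KCNT1 (6.88 to 1.25 TPM, log2 fold -1.81) and KCNH1 (6.85 to 1.44 TPM, log2 fold -1.69) were lowest above 5 TPM. In siG3BP2 and Total, KCNT1 was at 1.27 and 0.169 TPM and KCNH1 at 1.65 and 0.924 TPM. KCNH1 overlaps another row and shares 16.6% of its windows with other genes. Calcium handling genes had a median of -0.08 (42 members) and none past 1.5-fold. Neurotransmitter receptor genes (21 members) had a median of -0.21, with the nicotinic subunit gene CHRNB4 (28.4 to 14.8 TPM, log2 fold -0.90) and the NMDA receptor gene GRIN1 (14.6 to 7.58 TPM, log2 fold -0.86) lower and the muscarinic receptor gene CHRM2 (5.12 to 10.5 TPM, log2 fold 0.91) higher.

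The microtubule-associated proteins, which stabilise and organise axonal microtubules, had 40 members and a median of -0.21, with 0 higher and 7 lower past 1.5-fold (3.71% and 6.23% of all members). MAPT, which encodes tau, stood at 13.6 TPM in siCtrl, 4.68 TPM in siG3BP1, 1.86 TPM in siG3BP2 and 0.656 TPM in Total, so that siCtrl was the highest of the 4. Its span overlaps that of another row on the same strand, and how reads were divided between them is not known. CLIP1, a plus-end tracking protein, stood at 7.65 TPM in siCtrl and 1.47 TPM in siG3BP1, MAP1A at 19.6 TPM in siCtrl and 11.5 TPM in siG3BP1, and MAP2, of dendrites, at 12.5 TPM in siCtrl and 16 TPM in siG3BP1. In siG3BP2 and Total, CLIP1 was at 1.66 and 0.402 TPM and MAP1A at 11.3 and 2.01 TPM. Tubulins and stathmins had a median of -0.02 (18 members), and TUBA1C stood at 108 TPM in siCtrl, 218 TPM in siG3BP1, 54.9 TPM in siG3BP2 and 59.9 TPM in Total, with siG3BP1 the highest. TUBA1C shares 11.0% of its windows with other genes, most of all with TUBA1B (3149 to 3010 TPM). Their sum, set mostly by TUBA1B, had a log2 fold of -0.01. TUBB6 (21.5 to 18.1 TPM, log2 fold -0.24) was the lowest of that list above 5 TPM. Motor genes of the kinesin, dynein and dynactin families (57 members, median -0.13) had 3 higher and 2 lower, with the axonal kinesin genes KIF1A (104 to 61.1 TPM, log2 fold -0.76) and KIF5C (10.3 to 5.16 TPM, log2 fold -0.87) lower and KIF1B (6.55 to 10.4 TPM, log2 fold 0.59) higher.

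Spectrins, ankyrins and giant cytolinkers (18 members) had a median of -0.18, with PLEC, plectin, at 29.8 TPM in siCtrl and 9.27 TPM in siG3BP1 and DST, dystonin, at 4.19 TPM in siCtrl and 7.09 TPM in siG3BP1. PLEC was at 9.72 TPM in siG3BP2 and 3.89 TPM in Total. SPTBN1 stood at 73.8 TPM in siCtrl and 60.2 TPM in siG3BP1. Actin regulators (54 members, median -0.07) had 2 genes lower past 1.5-fold, ACTN4 and the formin gene DIAPH1 (25.8 to 7.72 TPM, log2 fold -1.62), and 0 higher. DIAPH1 was at 6.34 TPM in siG3BP2 and 3.21 TPM in Total. Extracellular matrix genes (78 members, median -0.09) had 3 higher and 10 lower past 1.5-fold (3.71% and 6.23% of all members). The laminin chain gene LAMA5 (20.3 to 10.4 TPM, log2 fold -0.90) and the integrin gene ITGA3 (7.17 to 3.61 TPM, log2 fold -0.82) were among the lower and MMP11, a matrix protease (1.87 to 6.65 TPM, log2 fold 1.42), among the higher. Solute carriers (193 members, median -0.08) had 7 higher and 15 lower, SLC39A4 and SLC52A2, a riboflavin transporter (31.3 to 7.83 TPM, log2 fold -1.87), lying farthest out among those above 5 TPM.

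Genes of neurodegenerative disease were described last. The amyloid precursor gene APP was level at 262 TPM in siCtrl and 262 TPM in siG3BP1, and of the protease genes that act on its product, ADAM10, the main alpha-secretase, stood at 3.98 TPM in siCtrl and 4.52 TPM in siG3BP1 and BACE1, the beta-secretase, at 43.6 TPM in siCtrl and 33.4 TPM in siG3BP1. The list of APP, secretases and partners (28 members) had a median of -0.10, with 1 gene higher, the adaptor gene APBA2 (1.37 to 9.67 TPM, log2 fold 2.17), and 1 lower, LRP1 (21.7 to 12.4 TPM, log2 fold -0.76), past 1.5-fold. Genes of ALS, FTD and Parkinson disease had a median of -0.03 (40 members), with MATR3 (24.3 to 38.5 TPM, log2 fold 0.64) higher and GIGYF2 (6.04 to 1.84 TPM, log2 fold -1.31) lower. The 6 polyglutamine disease genes among the members had a median of -0.45, with 2 lower past 1.5-fold. HTT, which encodes huntingtin, stood at 17 TPM in siCtrl, 4.98 TPM in siG3BP1, 3.89 TPM in siG3BP2 and 1.72 TPM in Total, ATXN2, a stress granule protein, at 21.5 TPM in siCtrl and 15.6 TPM in siG3BP1, and ATN1 at 98.7 TPM in siCtrl and 126 TPM in siG3BP1. HTT, like MAPT, was highest in siCtrl of these 4 libraries. By RT-qPCR the study reported lower HTT RNA in G3BP-depleted neuroblastoma cells.

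**Figure D4:**
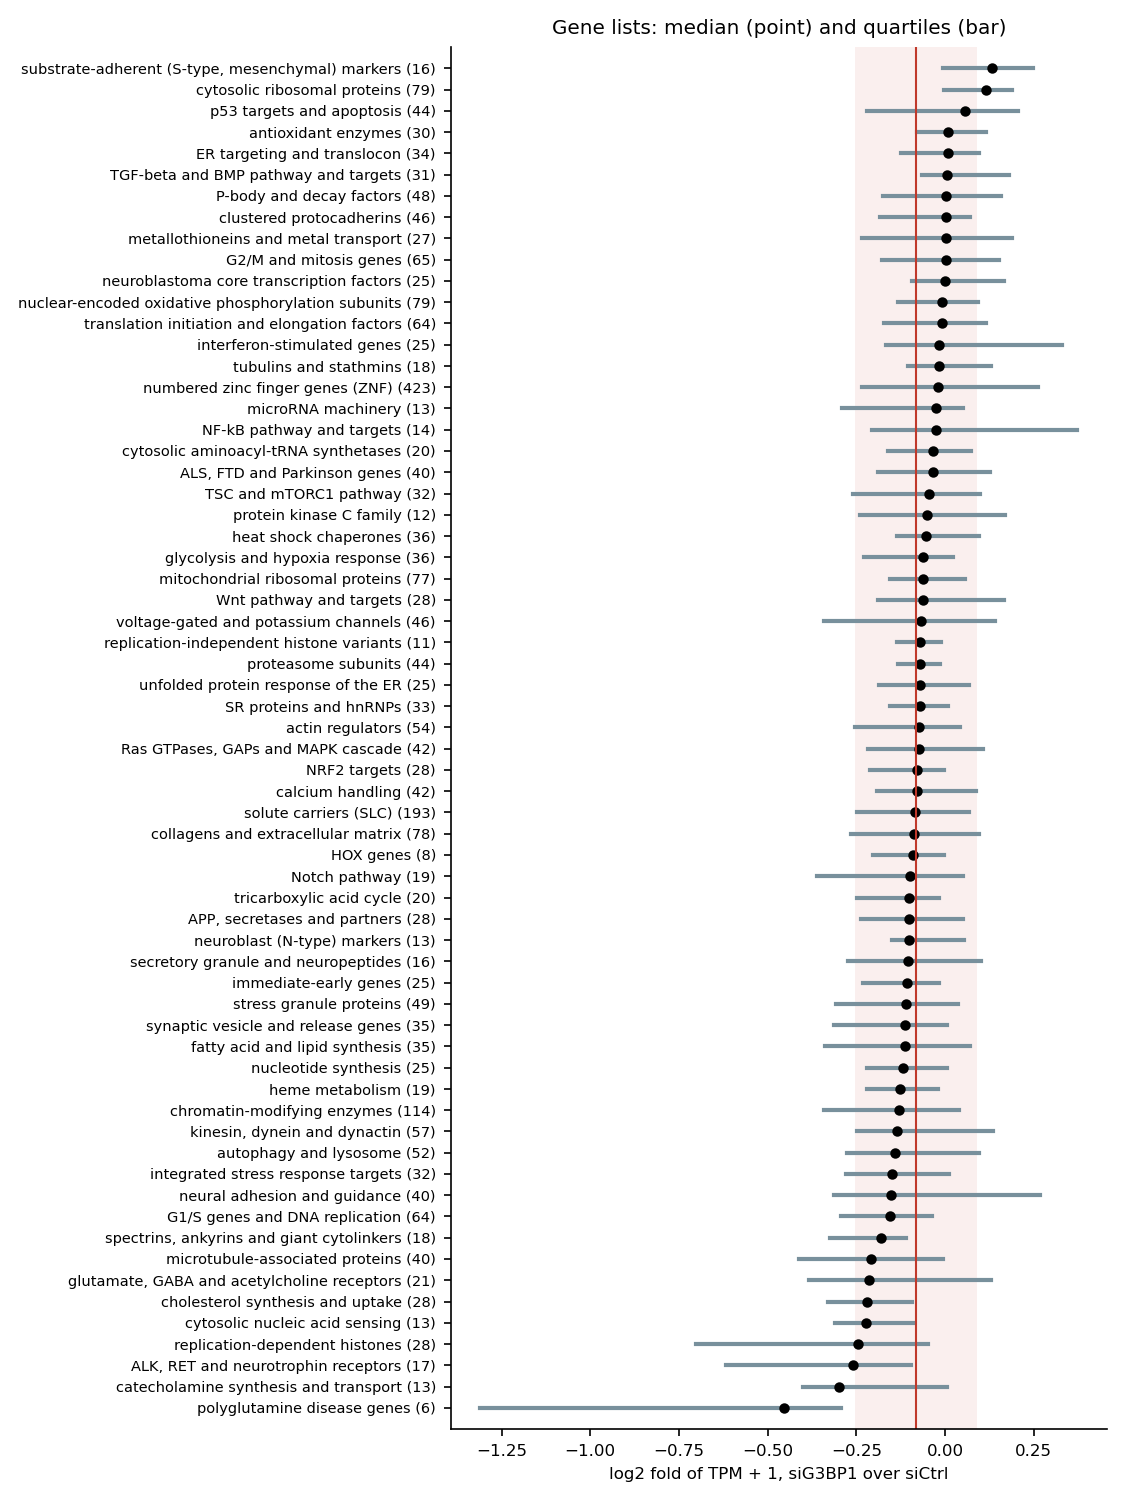
Median (point) and quartiles (bar) of the log2 fold of TPM + 1 (siG3BP1 over siCtrl) over the members of each list, with the number of members in brackets, and in red the median (line) and quartiles (band) of all 12280 members. Cytosolic ribosomal proteins at 0.12 and mesenchymal markers at 0.13 lie at the top, and the 13 catecholamine genes at -0.30 and the 6 polyglutamine genes at -0.45 at the bottom.

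Of the 65 lists with members, 35 had a median above that of all members. In 3 lists the median was more than 0.1 above it (cytosolic ribosomal proteins, mesenchymal markers, p53 targets) and in 8 more than 0.1 below it (polyglutamine, catecholamine, ALK/RET/neurotrophin receptor, replication-dependent histone, nucleic acid sensing, cholesterol, neurotransmitter receptor and microtubule-associated genes). Of these 11, all but the neurotransmitter receptor list kept their side of the overall median under every scaling, pseudocount and filter tried. With no filter on low values the median of that list equalled the overall median, at 0. Under the median-ratio scaling the overall median moved by 0.08. The lists were chosen with earlier results of these data known, and a list median with 1 library a side has no error.

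The log2 fold differed with the base composition of the transcript. Members in the lowest quintile of GC content (of the longest annotated transcript, up to 40.9%) had a median of 0.04 and those in the fourth quintile one of -0.13, with -0.11 in the highest. In the lowest quintile 56.8% of genes were above 0 and in the highest 29.5%. By transcript length the medians ran from -0.04 in the shortest quintile (up to 2116 bases) to -0.12 in the longest (from 6046 bases), and the share lower past 1.5-fold from 5.18% to 9.86%. By mean transcript length per gene the medians ran likewise from -0.04 to -0.12, but the share lower past 1.5-fold only from 6.03% to 6.89%. The part of these features in the list medians was not tested.

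Stress granule classes were set from the SG and Total libraries. The 7354 members classed as SG-enriched had a median of -0.11, the 1279 SG-depleted ones a median of -0.01 and the 3647 others one of -0.07. SG-enriched members were lower past 1.5-fold in 7.68% and SG-depleted ones in 3.13%. The enriched class had longer transcripts (median 4763 against 1643 bases) and lower levels (median 8.07 against 77.1 TPM), and these differences cannot be told apart from the class. Among SG-enriched members, the transcription factor gene TCF4 (21 to 17.8 TPM, log2 fold -0.23), SPTBN1 and PRKCA had values below 0, short of 1.5-fold. Among SG-depleted members, the cytokine gene MIF (870.3 to 1095 TPM, log2 fold 0.33) and EBPL (77.5 to 92.2 TPM, log2 fold 0.25) had values above 0, also short of 1.5-fold, and TPT1 (580.4 to 574 TPM, log2 fold -0.02) was level.

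For G3BP1 eCLIP the libraries titled Ctrl were used. The study describes these cells as untreated, whereas their labels give the same arsenite dose as those of the knockdown samples. Their deposited values, averaged over 2 libraries and taken per kb of the annotated gene span, did not order the median fold. That span includes introns, and the values were not corrected for the level of the transcript. A relation of binding per mRNA to the fold was thus not tested. The medians were -0.07 in the lowest quintile and -0.08 in the highest, and -0.08, -0.08 and -0.09 between. The share of genes lower past 1.5-fold was 5.58% in the lowest and 8.31% in the highest quintile, and the share higher was 3.59% and 4.60%.

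**Figure D5:**
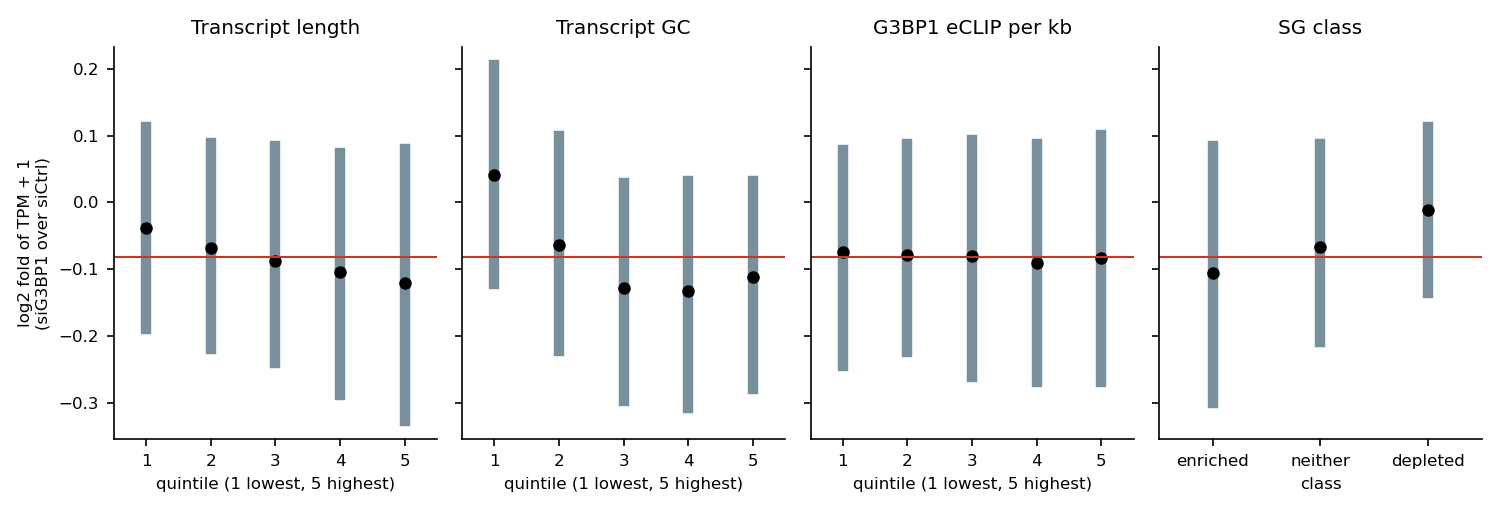
Median (point) and quartiles (bar) of the log2 fold of TPM + 1 (siG3BP1 over siCtrl) over quintiles of transcript length, transcript GC and G3BP1 eCLIP value per kb, and over 3 stress granule classes, with the median of all members as a red line. The GC panel spans medians from 0.04 to -0.13, and the eCLIP panel stays between -0.07 and -0.09.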

How the data were processed

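Poly(A) RNA-seq of SH-SY5Y cells was compared between 1 library given siRNA to G3BP1 and 1 given control siRNA. Per the study's methods, the authors aligned 150-base paired reads from DNBSEQ to GRCh38.p13 with HISAT2 (version 2.1.0 in the submitters' processing notes), estimated TPM with StringTie on GENCODE release 41 and deposited TPM for protein-coding genes. For eCLIP they deposited log10 values per gene, of which the 2 G3BP1 libraries titled Ctrl were used. TPM keep no read counts, so a count test was not possible, and StringTie divides reads between overlapping and similar genes by its own estimate, which single TPM can depend on.

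Here, log2((siG3BP1 + 1)/(siCtrl + 1)) was computed for 12280 rows above 1 TPM in at least 1 of the 2 libraries, in Python 3.11.15 with pandas 2.3.3, numpy 2.4.6 and matplotlib 3.10.9. A gene was called past a fold of 2 or 1.5. The script was tested on simulated data. GENCODE release 44 (GRCh38), which held 19910 of the 19942 rows, gave positions, lengths, GC and the share of 75-base transcript windows found in another gene. The members, the 66 gene lists and the rules were chosen with earlier results of these data known. Named by rule were the knocked-down genes and 14 genes the study followed, the 15 highest and 15 lowest log2 folds above 10 TPM, the 5 highest and 5 lowest in each band from 5 TPM, and per list up to 4 genes above 5 TPM in each direction. RPS3, CAPRIN1, USP10, CDKN1A, MDM2, DDC, SMN1 and SMN2 were added after their values were seen. Alternatives were other pseudocounts, scalings, filters and thresholds. The rRNA-depleted table was not used here, and some genes that the rules name are not reported here.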

Additional observations from a re-analysis of the deposited data

How the results depend on the processing

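Each condition has 1 library and its TPM have no known depth, so no value above carries an error, and the alternatives show only how the arithmetic bears on it. No paired analysis was possible because each knockdown condition has 1 library and no test was run. Of the 138 genes higher and 243 lower past 2-fold, a pseudocount of 0.1 TPM gave 289 and 425, one of 5 TPM 31 and 62, the plain ratio of TPM 311 and 453, a minimum of 5 TPM 71 and 145, and a threshold of 4 gave 15 and 24. Of the 455 higher and 765 lower past 1.5-fold, the pseudocount of 5 TPM left 124 and 288, and the minimum of 5 TPM 215 and 462. These counts are smaller by construction where fewer genes or a larger pseudocount enter. The number of lists with a median above that of all members was 35, and 8 with no filter on low values, where the overall median is 0. All 30 genes at the ends of the fold stayed past 2-fold under each pseudocount, scaling and filter, 26 of them were still among the rows without overlapping and read-through rows, and 25 without rows that share over 10% of their windows with another gene, an alternative chosen after seeing the data. They were picked for the largest folds, so the scalings and filters could hardly move them below 2-fold. Summed with a second row or partner gene, PPP2R3B (-0.41), CD99 (0.25) and POLR2J3 (0.80) fell short of 2-fold, and TMEM256 (1.39) did not. Rescaling to a median ratio of 1 left 77 of 79 named calls past 2-fold, and a pseudocount of 5 TPM left 55. The median log2 fold of all members, -0.08, ran from -0.09 to 0.00 over these settings. The difference between the highest and the lowest band, 0.09, ran from 0.07 to 0.13 over the pseudocounts and scalings. The difference between the extreme length quintiles was -0.08 by the longest and by the mean transcript length, and that between SG-enriched and SG-depleted members -0.10, and -0.09 with SG rescaled. With either eCLIP library left out the difference between the highest and the lowest quintile was -0.01 (-0.0106 to -0.00639).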

Other observations

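Chromosomes differed little in the knockdown. The median log2 fold of members ran from -0.14 on chromosome 22 (307 genes) and -0.12 on chromosome 17 (750 genes) to -0.02 on chromosome 4 (399 genes) and 0.00 on chromosome 13 (198 genes). Within members between 20 and 500 TPM, the lowest quintile of GC content (up to 44.7%) had 44.1% of its genes above 0 and the highest quintile (from 60.6%) 27.2%, so the difference by base composition was also present among the more abundant genes. Chromosomes 17 and 22 are gene-rich and GC-rich, but so is chromosome 19, with a median of -0.06 (968 genes). The part of base composition in these medians was not tested.

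For 18 genes of the pseudoautosomal regions the table lists 2 rows for 1 identifier, and the TPM can differ between them. ZBED1 stood at 16.6 and 21.7 TPM in siCtrl and at 11.7 and 15.5 TPM in siG3BP1, with a log2 fold of the sum of -0.48, and SLC25A6, an ADP/ATP carrier, at 1555 TPM in siCtrl and 1719 TPM in siG3BP1 over both rows. In CD99 and PPP2R3B the 2 rows differed in opposite directions between the libraries.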
